A study of Mus musculus with 8 samples.

Results

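Squamous keratinocyte barcodes were 310 of the 96721 quality barcodes in 8 single-cell libraries from the mouse colonic lamina propria, and 308 of them lay in the 4 libraries from mice given dextran sulfate sodium (DSS). A barcode is the droplet label that stands for a cell. The tables held 100673 barcodes in all, and a quality barcode had at least 400 genes and under 20% mitochondrial UMIs (unique molecular identifiers, each counting 1 captured transcript). A squamous barcode held at least 10 UMIs summed over the keratins Krt5, Krt14, Krt6a and Krt17. It also held at most 1 UMI of Cd3e, Cd3d and Cd3g together, at most 2 of C1qa and at most 10 of Col1a1 and Dcn together. The 4 gate keratins and these limits chose the barcodes, so their levels, and the contrast with all other barcodes, are given as a description with no test.

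The mice were C57BL/6, 10 to 12 weeks old, and either wildtype or mutant. All mutant mice carried the same mutation. DSS, which injures the colonic epithelium, was given at 2% in the drinking water for 7 days and followed by 3 days of ordinary water, and untreated mice had ordinary water throughout. Colons were collected on day 10, with 2 libraries, described as independent biological replicates, in each of the 4 groups. Colon tissue was digested with collagenase, DNase and dispase, the cells were purified on a Percoll gradient, and CD4+ T cells were enriched with a magnetic kit. A keratinocyte in these libraries is therefore a cell or a piece of RNA that passed an enrichment for another cell type, and shares of barcodes are not shares of the tissue.

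The colon is lined by a single layer of columnar epithelium, which makes keratins such as Krt8, Krt18 and Krt20. Stratified squamous epithelium is found in skin, oesophagus and the anal canal, where the hindgut ends. Its basal layer divides, sits on a basement membrane and makes the keratin pair Krt5 and Krt14 under the factor Trp63. Cells that leave this layer switch to other pairs, Krt1 and Krt10 in cornifying skin and Krt4 and Krt13 in moist mucosa, while Krt6a, Krt16 and Krt17 are made by keratinocytes that are activated by injury.

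The DSS libraries gave 29 squamous barcodes in wildtype replicate 1, 152 in wildtype replicate 2, 69 in mutant replicate 1 and 58 in mutant replicate 2. As a share of quality barcodes this was 0.268% in wildtype replicate 1, with an exact 95% binomial interval of 0.179% to 0.384%. The share was 1.13% (0.961% to 1.33%) in wildtype replicate 2, 0.449% (0.349% to 0.568%) in mutant replicate 1 and 0.561% (0.426% to 0.725%) in mutant replicate 2. Both wildtype values lay outside the pair of mutant values, 1 below and 1 above, so the genotypes overlapped. Untreated libraries gave 2 squamous barcodes, both in mutant replicate 1 (0.0190%, 0.00230% to 0.0685%). The other untreated libraries held 0 of 13264, 0 of 11972 and 0 of 10991 quality barcodes, which allows shares of up to 0.0226%, 0.0251% and 0.0273%. All 4 DSS libraries lay above all 4 untreated ones, and the CD4+ enrichment can set these shares. The intervals and limits cover counting error only.

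**Figure D1:**
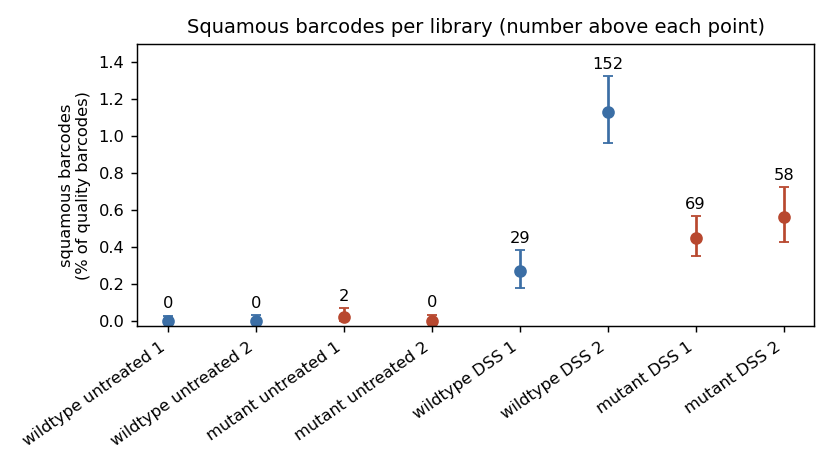
Squamous barcodes as a percentage of quality barcodes in each of the 8 libraries, with exact 95% binomial intervals and the number of barcodes above each point. The 4 DSS libraries hold 29 to 152 barcodes, and the untreated libraries hold 2 or none.

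Wildtype DSS replicate 2 stood apart from the other libraries. Its squamous barcodes had a median of 5130 UMIs, against 12768 in wildtype replicate 1, 11115 in mutant replicate 1 and 17770 in mutant replicate 2, while quality barcodes had medians of 1886 to 2818 UMIs in the DSS libraries. Of its 152 squamous barcodes, 65 held 2 or more UMIs of the smooth muscle genes Acta2 and Myh11, against 2 of 29, 0 of 69 and 0 of 58 in the other DSS libraries. These 65 had a median of 2721 UMIs, 62 of them had under 5000, 47 held a UMI of the endothelial genes Pecam1 or Cdh5, and 58 held a UMI of the desmosome or junction genes Dsp or Perp. The remaining 87 had a median of 14124 UMIs, and 9 of them held Pecam1 or Cdh5. The 2 such barcodes of wildtype replicate 1 were deep, at 30224 and 44518 UMIs. They held 2 and 8 UMIs of Acta2 and no Myh11 UMI, and both held Dsp or Perp. Below, barcodes with Acta2 and Myh11 UMIs are those with 2 or more UMIs of both genes summed. Without barcodes of 2 or more such UMIs the share was 0.649% in wildtype replicate 2 and 0.249% in wildtype replicate 1, still the highest and the lowest of the 4.

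In the 65 barcodes, Acta2 stood at 933 CPM (UMIs of the gene per 1000000 UMIs of the barcodes summed) and Myh11 at 766 CPM, while in the other 87 Acta2 stood at 8.67 CPM and Myh11 was not seen. The fibroblast collagens were also higher in the 65, with Col3a1 at 271 against 4.67 CPM and Col1a2 at 198 against 3.34 CPM. Dsp stood at 348 CPM in the 65 and 936 in the 87. Values below are for all squamous barcodes, and the value for wildtype replicate 2 without the 65 barcodes is added where it moved by over 1.5 times. Over the 28 gene lists used here, 201 listed genes reached 10 CPM both in that library and as a mean of the 4 DSS libraries. Of the 201, 18 moved by that much, and listed genes with a lower mean were not counted. Of these 18, 10 belong to the lists for fibroblasts, endothelium, muscle and glia, and myeloid cells, and the other 8 are Cxcl10, Ccl2, Ccl7, Il6st, Tgfbr2, B2m, Tap1 and Irf1. No counted gene of the keratinocyte lists did, but the 1.5-fold limit could not show a gene that was low in the 65. Squamous UMIs of that library numbered 1731730 with them and 1499218 without, so leaving them out raises such a gene only slightly. Summed by list, mucosal genes stood at 976 CPM in the 65 and 5367 in the 87. Cornified-layer genes stood at 508 and 2962 CPM, and basal layer genes at 3428 and 3653 CPM. The part of the mixed barcodes in the results was not tested beyond these comparisons. No doublet caller was run.

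**Figure D2:**
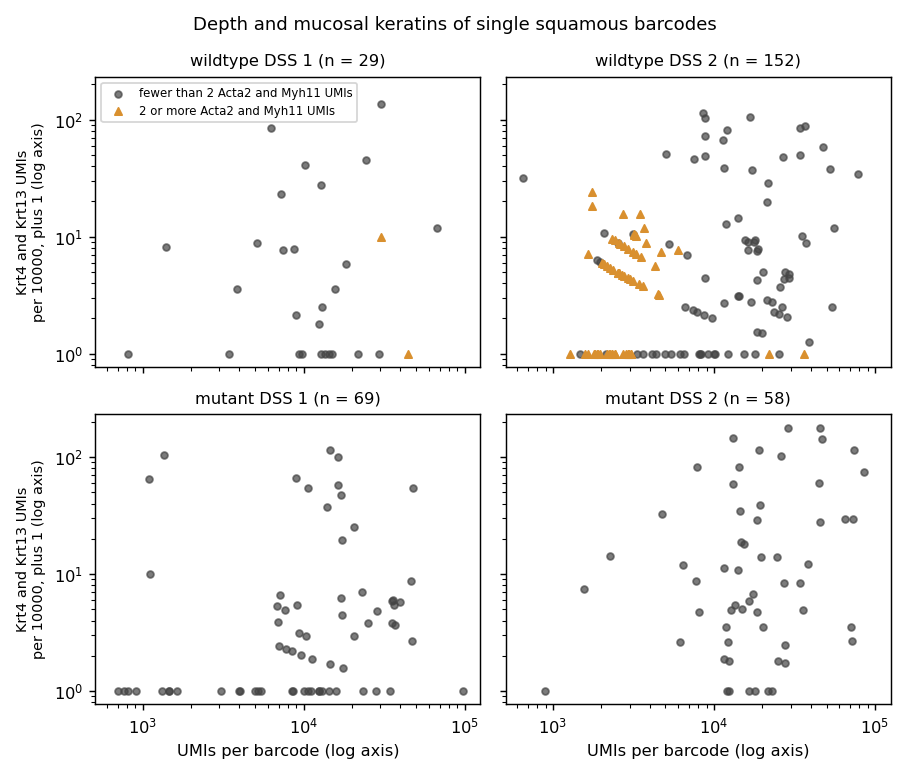
Each point is 1 squamous barcode of a DSS library, by its UMIs (x, log axis) and its Krt4 and Krt13 UMIs per 10000 plus 1 (y, log axis). Triangles mark barcodes with 2 or more Acta2 and Myh11 UMIs, of which 65 lie in wildtype replicate 2 and 2 in wildtype replicate 1.

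Of 376 quality barcodes with at least 10 gate keratin UMIs, 66 exceeded a limit on another cell type, 56 of them the limit on Cd3e, Cd3d and Cd3g. Few barcodes lay near the keratin threshold. In all libraries 11 barcodes that met the other limits held 7 to 9 gate UMIs, 11 held 10 to 12, and 161 held 100 or more. Barcode sequences of 8 squamous barcodes occurred in another library as well, and none was squamous in both. The authors' list of 27420 kept cells held 17 squamous barcodes, and 23 squamous barcodes had a Cd4 UMI.

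Gate keratin UMIs were also found outside the squamous barcodes. Among T cell barcodes (3 or more UMIs of Cd3e, Cd3d and Cd3g), 0.613% held a gate keratin UMI in wildtype DSS replicate 1, and 2.49%, 2.07% and 1.95% did so in wildtype replicate 2 and mutant replicates 1 and 2. In untreated libraries this share was 0.0683% to 0.384%. Gate keratins stood at 27.8, 122, 297 and 381 UMIs per 1000000 in the T cell barcodes of the DSS libraries, in the same order. In the untreated libraries they stood at 0.247 to 2.49. Quality barcodes with 10 or more gate keratin UMIs that exceeded the Cd3 limit numbered 5, 19, 19 and 12 in the DSS libraries. A few such barcodes can carry much of these levels, and their part was not tested. Median depths of the T cell barcodes were 2453 to 3746 UMIs in the DSS libraries. Squamous barcodes held 84.3% and 88.7% of all gate keratin UMIs in the wildtype DSS libraries and 69.4% and 63.2% in the mutant ones, against 2.82% of the UMIs of all quality barcodes in the 4 DSS libraries.

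Transcript levels are given in CPM summed over the squamous barcodes of a library, for wildtype replicates 1 and 2 and then mutant replicates 1 and 2 after DSS. Reads come from the 3' end, so a level counts molecules with no length term. Krt14, the basal type I keratin, stood at 8315, 7217, 7909 and 4291 CPM. Its partner Krt5 stood at 2992, 3443, 2850 and 2721 CPM. Krt6a overlapped with Krt5, at 3001, 3999, 2923 and 3300 CPM, and Krt17 stood at 2210, 2793, 1907 and 879 CPM. Mutant replicate 2 had the lowest Krt14 and Krt17 of the 4 libraries.

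Markers of squamous keratinocytes that the rule did not use were present. All 14 basal layer genes were measured at 10 CPM or more in every DSS library. Krt15, a basal keratin, stood at 216, 383, 233 and 538 CPM. Col17a1, the collagen of the hemidesmosome that anchors basal cells, stood at 198, 263, 381 and 192 CPM. Integrin Itga6, its partner Itgb4 and laminin chain Lamb3 were present in each library, Itgb4 at 240, 218, 213 and 90.3 CPM. At least 1 UMI of Trp63 was found in 65.5%, 40.8%, 62.3% and 67.2% of barcodes, and of Dsp in 96.6%, 76.3%, 88.4% and 96.6%. After each barcode was thinned to 1000 UMIs, which left out 7 shallower barcodes, Trp63 was found in 4.64% to 20% of barcodes per library.

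Junction genes were likewise present throughout. Perp, a desmosome protein and p63 target, stood at 1080, 933, 1085 and 1083 CPM. Dsp (desmoplakin), which ties desmosomes to keratin filaments, stood at 1200, 857, 834 and 992 CPM. Of the 15 junction genes, 14 were at 10 CPM or more in all 4 libraries. Klf4, Klf5 and Hes1 were the 3 highest genes of the squamous factor list, with Klf5 at 621, 515, 570 and 463 CPM.

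All 14 basal genes, 14 of the 14 junction genes with a mean of 10 CPM or more and 15 of 16 squamous factors were above all other quality barcodes in each of the 4 DSS libraries. Among all 7480 genes with that mean, 41% were above and 32.3% below in all 4. The rule used this contrast, so nothing further is read from these shares.

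**Figure D3:**
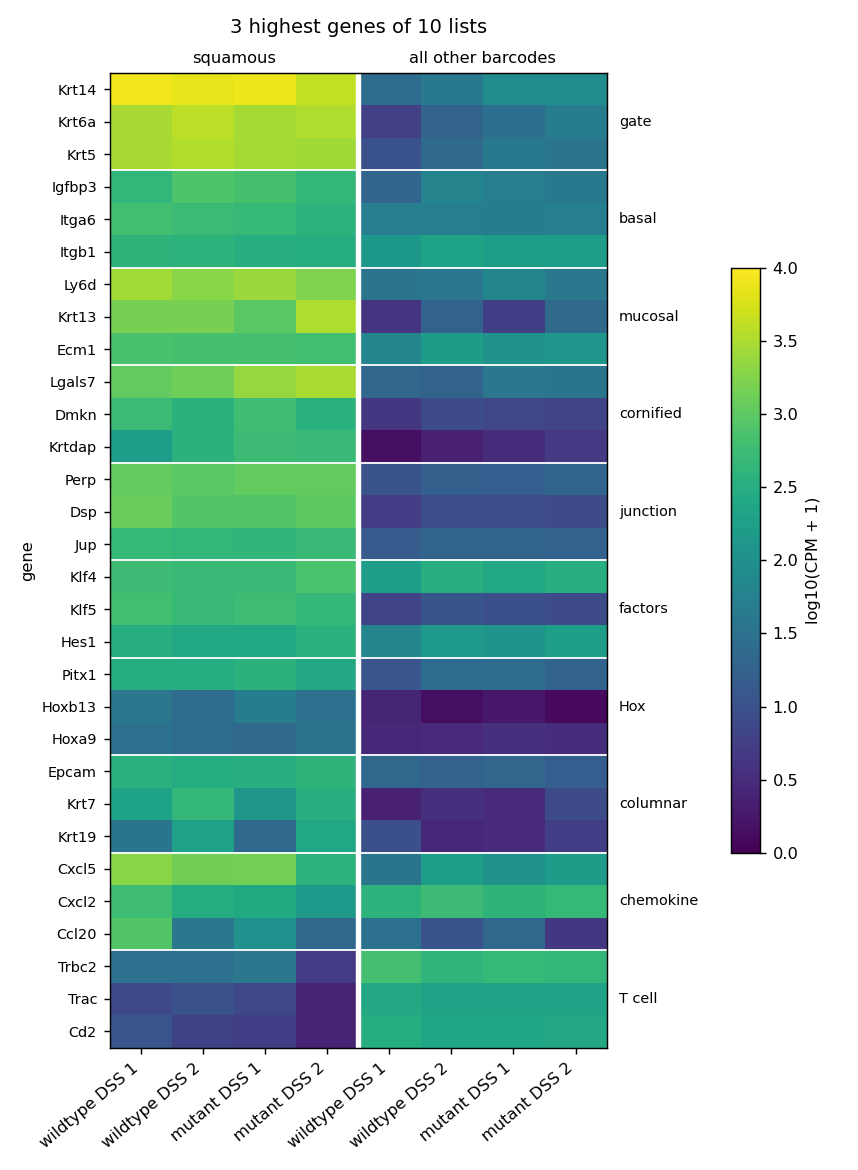
Levels as log10(CPM + 1) of the 3 highest genes of 10 lists (rows) in squamous barcodes and in all other quality barcodes of the 4 DSS libraries (columns). Keratin, junction and squamous factor genes are bright in all 4 squamous columns, and T cell genes are brighter in the other columns.

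The genes with the highest ratio of squamous to other barcodes, among those of 50 CPM or more, were Krt84, Psca, Csta1, Krtdap and Ifi202b. Krt84, a hard keratin also known from the tongue and nail, stood at 150, 61.2, 19 and 0.705 CPM, and its 197 UMIs in squamous barcodes were 99.5% of those in the DSS libraries. Without the 2 barcodes with Acta2 and Myh11 UMIs, wildtype replicate 1 stood at 78.0 CPM. The UMIs came from 8 of 29, 10 of 152, 7 of 69 and 1 of 58 barcodes, and 1 barcode held 56.5% of them in wildtype replicate 1. Psca, a surface protein of stratified mucosae and bladder, stood at 166, 428, 148 and 1691 CPM, and 3, 12, 11 and 10 barcodes held a UMI. A single barcode held 90.8%, 57.8%, 19.6% and 53.7% of the Psca UMIs. UMIs of Ltf (lactoferrin) were found in 6, 8, 16 and 11 barcodes. A barcode with no UMI can still express a gene of this level.

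Other leading genes were more even between libraries. The desmosomal cadherins Dsg3 (115, 104, 122 and 116 CPM) and Dsc2 (207, 153, 200 and 134 CPM) were among the 20 highest ratios. So were 4 members of the airway and mucosal serine protease family, Tmprss11a, Tmprss11b, Tmprss11d and Tmprss11g, of which Tmprss11d stood at 296, 140, 157 and 196 CPM. The members of the Tmprss11, Sprr2 and Krt6 families resemble each other, as do Ifi202b and its relatives, and reads could be split between copies. Outside the 20, Ppbp (platelet basic protein, a chemokine) was picked after its values were seen, at 690, 2269, 1683 and 1345 CPM, and a single barcode held 27.8%, 17.7%, 57.2% and 44.3% of its UMIs.

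For 3 leading genes and Krt5, the 250 bases before the transcription start were read from RefSeq (build GRCm38.p6), because they are the genes of the basal (Krt5), mucosal (Krt13) and later differentiated (Krtdap, Sprr2d) programmes. Capitals mark matches to TGANTCA on either strand and to TATAAA on the printed strand. TGANTCA takes in the AP-1 sites TGACTCA and TGAGTCA, but also other runs such as TGAATCA, the one marked in Krt13. All 4 are printed 5' to 3' on the strand of the gene. Krt13 lies at chr11:100121567-100121816 (minus strand), Krtdap at chr7:30787655-30787904 (plus), Sprr2d at chr3:92338890-92339139 (plus) and Krt5 at chr15:101712906-101713155 (minus), all windows just upstream of the annotated gene start.
Krt13: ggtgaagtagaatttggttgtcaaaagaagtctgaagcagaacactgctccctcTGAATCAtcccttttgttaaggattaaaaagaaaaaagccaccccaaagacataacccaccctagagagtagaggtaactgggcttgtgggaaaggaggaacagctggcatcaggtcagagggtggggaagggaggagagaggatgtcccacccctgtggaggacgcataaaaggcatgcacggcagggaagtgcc
Krtdap: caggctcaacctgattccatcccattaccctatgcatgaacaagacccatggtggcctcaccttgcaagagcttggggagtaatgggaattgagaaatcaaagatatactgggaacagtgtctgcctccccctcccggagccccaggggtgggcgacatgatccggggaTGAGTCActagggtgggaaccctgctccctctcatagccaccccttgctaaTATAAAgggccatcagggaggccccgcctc
Sprr2d: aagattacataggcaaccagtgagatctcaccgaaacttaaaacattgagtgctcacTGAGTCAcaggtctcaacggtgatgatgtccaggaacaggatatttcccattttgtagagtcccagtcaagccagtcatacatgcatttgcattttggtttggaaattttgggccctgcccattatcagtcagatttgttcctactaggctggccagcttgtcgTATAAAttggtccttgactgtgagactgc
Krt5: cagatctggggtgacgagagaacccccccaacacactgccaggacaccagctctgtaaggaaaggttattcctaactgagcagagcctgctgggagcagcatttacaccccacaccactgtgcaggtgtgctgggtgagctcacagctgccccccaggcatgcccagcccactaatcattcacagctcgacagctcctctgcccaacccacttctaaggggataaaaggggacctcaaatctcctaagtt

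Krt13, Krtdap and Sprr2d each held 1 TGANTCA in this window, and Krt5 held none. A second Krt13 window, at chr11:100120578-100120827, held 2 and is not printed. TGANTCA occurred in 6.75% of the 32851 promoter windows of 250 bases and in 5 of the 16 windows (31.2%) of the 15 leading genes found in the table. TATAAA occurred in 7.59% of all windows and in 2 of those 16. A match is only a run of letters. The genes were chosen with their levels known, and no test was made.

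Of 53 keratin genes in the tables, 14 reached 10 CPM in all 4 DSS libraries and 17 had no UMI in squamous barcodes. Besides the gate keratins, the highest was Krt13, the mucosal type I keratin, at 1509, 1518, 950 and 3293 CPM. Krt4, its type II partner, stood at 222, 208, 170 and 715 CPM. Krt13 UMIs were found in 62.1%, 71.1%, 58.0% and 82.8% of barcodes. Mutant replicate 2 had the highest level and share for both genes.

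The cornifying pair was lower and more uneven. Krt10 stood at 10.9, 76.8, 25.4 and 260 CPM and Krt1 at 2.18, 20.2, 68.0 and 162 CPM, while Krt2, a late epidermal keratin, had no UMI. Of the 18 cornified-layer genes, 8 reached 10 CPM in every library. Lgals7, a lectin of stratified epithelia, stood at 1106, 1319, 2298 and 3124 CPM, and Dmkn (dermokine) at 529, 370, 590 and 355 CPM. The late envelope and granule genes were low, with Lor (loricrin) at 2.18 to 6.35 CPM, Ivl (involucrin) at 2.12 to 7.25 CPM and Cdsn (corneodesmosin) at 0 to 1.41 CPM. Flg (filaggrin) stood at 0, 1.73, 0 and 64.2 CPM, and 1 barcode held 97.8% of its UMIs in mutant replicate 2. Of the 12 hair follicle and sebaceous genes, 2 reached 10 CPM in every library. The highest of the list, Mgst1, stood at 53.5 and 131 CPM in mutant replicates 1 and 2. Another 5 had no UMI, among them the hair keratins Krt71, Krt27, Krt35 and Krt25. Krt75, a keratin of the follicle's companion layer, stood at 4.36, 17.9, 4.53 and 0.705 CPM, and Scd1, a lipid enzyme of sebaceous glands, at 17.4, 15.0, 7.25 and 213 CPM. Krt36, a keratin outside the list, stood at 0, 72.8, 0 and 2.12 CPM, and 1 barcode held 64.3% of its UMIs in wildtype replicate 2.

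Among activated keratinocyte genes, Krt16 stood at 712, 731, 866 and 542 CPM and Krt6b at 669, 357, 566 and 649 CPM. Fabp5, a fatty acid carrier of activated keratinocytes, stood at 3193, 2805, 5647 and 3227 CPM. Hbegf, a ligand of the EGF receptor, stood at 653, 654, 607 and 879 CPM. Of the 21 genes of that list, 8 were at 10 CPM or more in every library, and each of these 4 was among them.

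Genes of columnar epithelium were mixed. Of the 17 in the list, 5 reached 10 CPM in every library and 6 had no UMI. Krt7, a keratin of ducts and other simple epithelia, stood at 207, 460, 132 and 323 CPM, and Krt19, which simple and some stratified epithelia share, at 34.8, 192, 22.7 and 249 CPM. Krt20 stood at 10.9, 10.4, 14.5 and 139 CPM. Krt8 stood at 0, 20.8, 4.53 and 28.2 CPM and Krt18 at 30.5, 79.7, 56.2 and 33.9 CPM. Vil1, Car1, Cdh17, Slc26a3, Tff3 and Lgr5, markers of absorptive, goblet and stem cells of the gut, had no UMI, and neither had Cdx1, Cdx2 or Hnf4a, factors of intestinal identity. Epcam, which columnar and some squamous epithelia share, was present at 355, 303, 318 and 399 CPM. Columnar comparison barcodes (10 or more UMIs of Epcam, Krt8, Krt20 and Lgals4, at most 1 gate keratin UMI) numbered 0 to 7 in the DSS libraries and up to 33 in the untreated ones, and no library held 10 or more of both kinds for a test.

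Of the 17 positional and hindgut factors, 6 reached 10 CPM in every library and 6 had no UMI, Hoxc10 and Hoxc13 among the latter. Hoxa13 stood at 0.705 to 2.31 CPM. Hoxb13, at the tail end of its cluster, stood at 37.0, 24.8, 48.9 and 30.3 CPM, against 0.243 to 1.57 CPM in all other quality barcodes. Hoxd13 stood at 21.8, 15.6, 10.9 and 18.3 CPM. Hoxa9, Hoxa7 and Hoxa10, from nearer the middle of their cluster, also belonged to the 6. In mutant replicates 1 and 2, Hoxa9 stood at 23.6 and 33.2 CPM, Hoxa7 at 14.5 and 23.3 CPM and Hoxa10 at 10.9 and 11.3 CPM. Pitx1, a factor of the hindlimb, was the highest of the list at 298, 297, 365 and 255 CPM. The 33 columnar barcodes of untreated mutant replicate 1 held Hoxb13 at 125 CPM and no Pitx1 UMI, values of 1 library from another gate.

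Among secreted factors, Wfdc2, a protease inhibitor of mucosal epithelia, stood at 2047, 1880, 1750 and 1090 CPM, and 75.9% of its UMIs in the DSS libraries were in squamous barcodes. The neutrophil attractant Cxcl5 stood at 1973, 1352, 1441 and 387 CPM. Ccl20, the ligand of CCR6 on IL-17-producing T cells, stood at 832, 37.0, 105 and 21.2 CPM, so wildtype replicate 1 was the only library above 105 CPM. Without its 2 barcodes with Acta2 and Myh11 UMIs, that library stood at 460 CPM. The EGF receptor ligand Areg was even, at 1111, 929, 911 and 1078 CPM.

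The antimicrobial genes S100a8 and Slpi differed between libraries of 1 genotype. S100a8 stood at 95.8, 8.08, 151 and 8.46 CPM, and Slpi at 54.4, 111, 523 and 21.9 CPM. Defb4, Defb6, Camp, Reg3g, Reg3b and Nos2 had no UMI. The receptor chain Il17rc stood at 26.1, 22.5, 43.5 and 22.6 CPM, with all other quality barcodes at 4.12 to 7.82 CPM. Il24, an IL-20 family cytokine, stood at 0, 12.1, 101 and 2.12 CPM, and in mutant replicate 1 1 barcode held 78.6% of its UMIs.

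Of the 20 antigen presentation and interferon genes, 12 had a mean of 10 CPM or more, and these stood below all other quality barcodes in each of the 4 libraries, against 32.3% of all genes of that level, a contrast that the rule used. H2-K1, a class I chain, stood at 237, 269, 222 and 222 CPM, with the other barcodes at 2270 to 2760 CPM. B2m, the partner of class I chains, stood at 216, 263, 165 and 114 CPM, and at 135 and 139 CPM in the wildtype libraries without the barcodes with Acta2 and Myh11 UMIs. The other barcodes, mostly immune cells, held B2m at 2206 to 2491 CPM.

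Cell cycle genes were present in each library. All 16 genes of the list were at 10 CPM or more in the 4 libraries, with Top2a at 283, 178, 206 and 121 CPM and Mki67 at 198, 155, 68.9 and 131 CPM. Barcodes with 3 or more UMIs of the list made up 65.5%, 65.1%, 55.1% and 63.8%, and 28.6%, 14.6%, 12.3% and 15.8% after thinning to 1000 UMIs.

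Most lists of other cell types summed to less than in the other barcodes. T cell genes summed to 11.3 to 71.0 CPM against 2039 CPM, with 38.0 CPM in place of 71.0 in wildtype replicate 2 without the 65 barcodes, and fibroblast genes to 168, 132, 29.0 and 7.76 CPM against 2668 CPM. Without the barcodes with Acta2 and Myh11 UMIs, the fibroblast sums of the wildtype libraries were 20.8 and 26.0 CPM. Endothelial genes summed to 56.6, 119, 101 and 18.3 CPM against 199 CPM, and to 0 and 44.0 CPM in the wildtype libraries without those barcodes. Glia and muscle genes summed to 34.8, 258, 7.25 and 2.12 CPM against 252 CPM, and to 2.60 and 14.7 CPM without them. The list for Langerhans, mast, melanocyte and Merkel cells summed to 36.4 to 68.0 CPM against 33.6 CPM, mostly from Isl1 at 35.2 to 62.5 CPM, with Cd207, Cpa3, Mlana, Tyr and Atoh1 at 0. Neutrophil genes summed to 2.18 CPM at most, with Ly6g, Mmp8 and Ngp at 0. Among genes of thymic epithelium, Foxn1 stood at 2.18 to 3.53 CPM, and Aire and Tbata had no UMI. Igkc, an antibody chain found free in many droplets, stood at 161, 2386, 319 and 1082 CPM, against 19822 to 33440 CPM in the other barcodes. Stress genes that respond to dissociation and heat summed to 8739 to 11970 CPM, against 9990 CPM in the other barcodes.

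The 2 squamous barcodes of untreated mutant replicate 1 had another make-up. They held 139 UMIs of Krt17, 39 of Krt14 and 19 of Krt5, and no UMI of Krt6a, Krt4 or Krt13. They also held 33 UMIs of Krt8, 30 of Epcam and 87 of Cldn4, genes of columnar epithelium or of both kinds. With 2 barcodes in 1 library, no comparison of DSS with untreated squamous barcodes was possible in either genotype, nor one of the genotypes without DSS, nor an interaction.

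Barcodes were then sorted by their differentiation keratins into ranges, not cell types. At least 3 UMIs of Krt4 and Krt13 and under 3 of Krt1 and Krt10 defined the mucosal range, at least 3 of each pair the double range, and under 3 of both the neither range. The mucosal range held 13 of 29, 57 of 152, 25 of 69 and 29 of 58 barcodes. The double range held 0, 8, 5 and 15 barcodes, and 16, 86, 39 and 14 had neither. Only 1 barcode, in wildtype replicate 2, had Krt1 and Krt10 alone.

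The mucosal and double ranges together made up 44.8%, 42.8%, 43.5% and 75.9% of barcodes. Without the barcodes with Acta2 and Myh11 UMIs, the wildtype values were 44.4% and 60.9%. Thinned to 1000 UMIs, the shares were 21.4%, 9.93%, 15.4% and 31.6%. Mutant replicate 2 had the highest share in all 3 versions, and wildtype replicate 2 moved from the lowest to the second highest without those barcodes. Median depth differed between ranges, with 12797, 16948, 17310 and 14970 UMIs in the mucosal range and 12590.5, 2920, 8514 and 12406 in the neither range, and the part of depth in the shares was tested only by the thinning.

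Levels in these ranges were compared library by library, leaving out barcodes with 2 or more Acta2 and Myh11 UMIs. Of 7510 genes with a mean of 10 CPM or more, 7.46% were higher and 15% lower in the mucosal range than in the neither range in all 4 libraries. The comparison is a description, since barcodes were chosen by Krt4 and Krt13 and the libraries hold 12 to 45 barcodes per mucosal range. Beyond those keratins, 6 of 9 cornified-layer genes and 6 of 14 junction genes were higher in all 4 and none of either was lower in all 4. Of the 14 basal layer genes, 7 were lower in all 4 and none higher. The same held for 5 of 13 dissociation and heat-shock genes (Fosb, Jun, Atf3, Hsp90aa1 and Hspa8), 5 of 12 antigen presentation genes and the myeloid gene Lyz2, and their part in the result was not tested.

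Psca stood at 355, 704, 295 and 1047 CPM in the mucosal range and at 0, 0, 2.27 and 0 CPM in the neither range, from 1 UMI. Calml3, a calmodulin-like protein of differentiated keratinocytes, stood at 327, 77.6, 104 and 88.8 CPM against 5.88, 3.41, 0 and 4.97 CPM. Cnfn (cornifelin), a protein of the cornified envelope, had 104 UMIs in the mucosal range and none in the neither range. Krt20, a keratin of the surface colonocyte and the bladder surface, was also higher in the mucosal range, at 23.3, 14.7, 25.5 and 157 CPM against 0, 0, 4.54 and 0. Krt6b and Sprr1a, the latter a cornified envelope precursor, were higher in all 4 libraries as well.

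Col17a1 stood at 51.3, 236, 222 and 190 CPM in the mucosal range and 394, 541, 604 and 343 CPM in the neither range. Trp63 stood at 131, 68.8, 104 and 96.8 CPM against 206, 157, 152 and 149 CPM. Tnc (tenascin-C), a matrix protein of wound edges, stood at 0, 14.7, 1.82 and 11.3 CPM against 106, 98.7, 40.9 and 24.9 CPM. Its list mostly went the other way. Of 13 activated or wound-edge genes, 5 were higher in all 4 libraries (Krt6b, Krt16, Sprr1a, Sprr2d and Fabp5), against 7.46% of all genes. Only 2, Itgb6 and Tnc, were lower in all 4, against 15% of all genes. Sostdc1, a secreted WNT and BMP antagonist, was lower in all 4 libraries too. Among cytokine receptors, Il4ra stood at 32.7, 46.2, 65.5 and 25.8 CPM against 112, 81.7, 125 and 34.8 CPM. It was 1 of 3 lower in all 4 libraries among 19 cytokine and growth factor receptors. That share is near the 15% of all genes, so nothing is read from it.

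The gate keratins did not separate the ranges in the same way. Krt14 was higher in the mucosal range, at 9932, 8573, 8583 and 6099 CPM against 6828, 5598, 6310 and 3355 CPM. Krt15 was lower in both wildtype libraries (126 and 340 against 423 and 797 CPM) and higher in both mutant ones (309 and 636 against 164 and 363 CPM), a difference that was not tested. Of 16 cell cycle genes, 5 were lower in all 4 and none higher, a count like those of the stress and antigen presentation genes, with Mki67 at 88.7, 133, 38.2 and 168 CPM against 282, 228, 109 and 204 CPM. Cytokines and alarmins held no gene that was higher or lower in all 4 libraries.

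**Figure D4:**
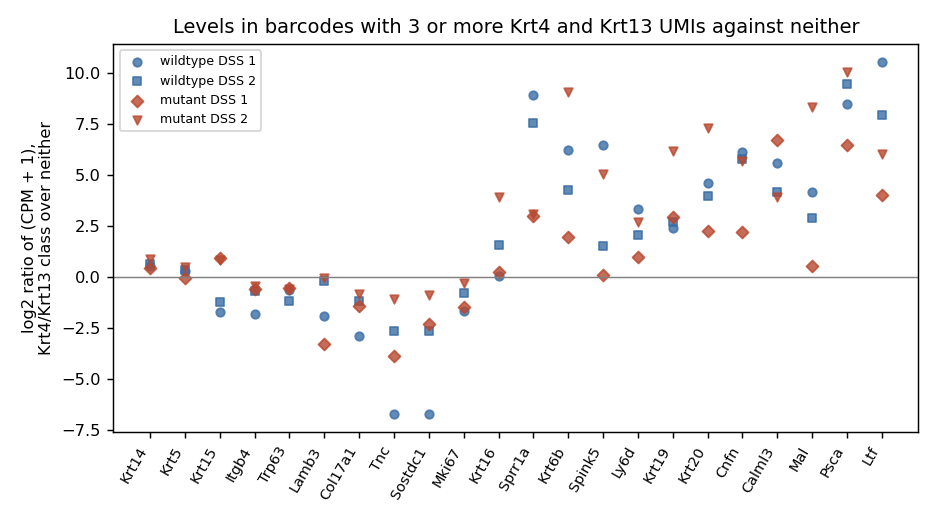
Each point is the log2 ratio of (CPM + 1) in barcodes of the Krt4 and Krt13 range over barcodes with neither pair in 1 DSS library, for 22 genes (x), with barcodes of 2 or more Acta2 and Myh11 UMIs left out. Psca and Ltf lie above 0 and Col17a1, Tnc and Sostdc1 below 0 in all 4 libraries, and Krt15 lies on both sides.

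Mutant and wildtype squamous barcodes after DSS were compared across genes, the only comparison of the design with at least 10 squamous barcodes in each library. UMIs were summed per library, and edgeR's quasi-likelihood test was applied to 8418 genes with Benjamini-Hochberg adjustment. No gene was called at an adjusted p of 0.05 (0% of those tested), and 374 genes (4.44%) had an unadjusted p under 0.05. The smallest adjusted p was 0.121. DESeq2 called 13 of 8668 genes (0.15%), among them the stromal or muscle genes Col1a1, Col1a2, Igfbp5 and Myl9. Of these, Col1a1 was limited by the rule that chose the barcodes. DESeq2 was not run without the barcodes with Acta2 and Myh11 UMIs. With edgeR, 0.933% of genes were called with no filter on low counts and 0.014% with stricter limits on other cell types. Leaving out 1 library gave 0.0748% (without wildtype replicate 1), 0% (without wildtype replicate 2), 1.76% (without mutant replicate 1) or 1.14% (without mutant replicate 2). The 7 genes called without wildtype replicate 1 were Myl9, Myh11, Tagln, Igfbp5, Mylk, Acta2 and Krt36, among them Acta2 and Myh11, by which the 65 mixed barcodes were set apart. None was called with gates of 20 or 5 keratin UMIs, with barcodes of at least 5000 UMIs or without wildtype replicate 2, where 4.51%, 3.78%, 3.27% and 3.11% had an unadjusted p under 0.05. In counts simulated for this comparison, 73.4% of 94 genes changed by 4-fold were recovered and 5.21% of 96 genes changed by 2-fold. Differences of 2-fold were thus mostly not detectable there with 2 libraries a group. The simulation gave every gene the same spread between libraries and held no genes carried by few barcodes. Its shares can overstate recovery in the real counts, where genes named below with changes of over 4-fold were not called in the main fit.

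The genes with small p were of several kinds, and those below were singled out after their values were seen, with log2 fold changes of mutant over wildtype ± SE from edgeR. Lgals7 stood at 1106 and 1319 CPM in wildtype and 2298 and 3124 CPM in mutant libraries, which do not overlap (1.30 ± 0.23, adjusted p = 0.206). Hpgd, the enzyme that inactivates prostaglandins, stood at 8.71 and 18.5 against 76.1 and 86.1 CPM (2.51 ± 0.34, adjusted p = 0.121; 3.38 without wildtype replicate 2). The row 2610528A11Rik, which encodes the ligand of the gut-homing receptor GPR15, stood at 71.9 and 55.4 against 246 and 171 CPM (1.89 ± 0.28, adjusted p = 0.121). None of the 3 was called in the main edgeR fit. With no filter on low counts edgeR called all 3, and all 3 were among the 13 that DESeq2 called.

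Keratins lay on both sides. Krt1 stood at 2.18 and 20.2 CPM in wildtype and 68.0 and 162 CPM in mutant libraries (log2 fold change 3.08 ± 0.58, edgeR adjusted p = 0.239). Krt42 stood at 24.0 and 31.2 against 2.72 and 2.82 CPM (-3.18 ± 0.47, edgeR adjusted p = 0.121). With 3 and 4 UMIs in the mutant libraries, Krt42 passed the filter on low counts through the wildtype ones. Its UMIs came from few barcodes, with 8 of 11 in wildtype replicate 1 and 34 of 54 in wildtype replicate 2 in 1 barcode each. Krt84 stood at 150 and 61.2 against 19 and 0.705 CPM (-3.28 ± 0.78, edgeR adjusted p = 0.482). Leaving out 1 library moved the Krt1 value to 5.82 without wildtype replicate 2 and 2.30 without mutant replicate 2. The Krt84 value moved to -2.62 without wildtype replicate 1, -6.77 without mutant replicate 1 and -2.20 without mutant replicate 2. Both genes were called by edgeR when either mutant library was left out.

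Lcn2 (lipocalin 2), which sequesters bacterial iron carriers, stood at 2.18 and 1.15 CPM in wildtype and 18.1 and 102 CPM in mutant libraries. Its log2 fold change was 5.50 ± 1.03 (edgeR adjusted p = 0.239), and DESeq2 called it. With 1 and 2 UMIs in the wildtype libraries, Lcn2 passed the filter on low counts through the mutant ones, and the size of its fold rests on those few UMIs. It was 3.73 without mutant replicate 2, 6.23 without mutant replicate 1 and 4.91 without wildtype replicate 2. In all other quality barcodes of the 4 libraries Lcn2 stood at 37.4 to 97.7 CPM, above mutant replicate 1 and below mutant replicate 2. Apoc1 stood at 8.71 and 31.2 against 65.2 and 163 CPM, and Calca, the gene of the neuropeptide CGRP and of calcitonin, at 166 and 41.6 against 18.1 and 11.3 CPM. Neither passed edgeR's threshold in the main fit. Both did with no filter on low counts, and both were among the DESeq2 calls. The log2 fold change of Apoc1 was 2.40, with 3.88 without wildtype replicate 2 and 1.56 without mutant replicate 2. That of Calca was -2.53, with -1.40 without wildtype replicate 1 and -3.32 without wildtype replicate 2.

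Stromal genes were among the smallest p-values too. Col1a1 stood at 19.6 and 24.8 CPM in wildtype libraries and had no UMI in the mutant ones, and Igfbp5 stood at 34.8 and 79.7 against 4.53 and 3.53 CPM. Such genes pass the filter on low counts through the wildtype libraries where they are high, so no count of them is given. The rule that chose the barcodes also limited the UMIs of Col1a1 and Dcn together. The level and p-value of Col1a1 are therefore a description, and no genotype difference is read from them. Without the barcodes with 2 or more Acta2 and Myh11 UMIs, Col1a1 stood at 5.20 and 6.00 CPM and Igfbp5 at 5.20 and 10.7 CPM in wildtype libraries, and neither was abundant enough to be tested. In that version 8182 genes were tested, none was called by edgeR, and 236 (2.88%) had an unadjusted p under 0.05. Log2 fold changes were then 1.21 for Lgals7, 2.24 for Hpgd, 1.63 for 2610528A11Rik, 2.81 for Krt1, 5.80 for Lcn2, -3.28 for Krt42 and -2.91 for Krt84. Those of Apoc1 and Calca were 2.13 and -2.72. The edgeR adjusted p was 0.889 for Lgals7, 0.248 for Hpgd and Krt42, 0.360 for 2610528A11Rik and 0.489 for Krt1 and Lcn2. For Krt84, Apoc1 and Calca it was above 0.889.

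By gene list, no list held a called gene. The median log2 fold change of mutant over wildtype was 0.01 over all genes tested, 0.06 over 14 basal layer genes, 1.06 over 11 cornified-layer genes, 0.22 over 8 mucosal genes and 0.68 over 11 antimicrobial genes. Higher in both mutant libraries than in both wildtype ones were 4 of 11 cornified-layer genes and 5 of 11 antimicrobial genes, against 8.9% of all genes tested. For chemokines the median was -0.41 over 11 genes, with 1 lower in both mutant libraries, and for cell cycle genes -0.30 over 16, with 9 lower in both, against 27% of all genes tested. The dissociation and heat-shock list had a median of 0.31 over 13 genes, with 4 higher in both mutant libraries and none lower in both, and a median of 0.43 without the barcodes with Acta2 and Myh11 UMIs. Its part in the medians of the other lists was not tested. Without the barcodes with Acta2 and Myh11 UMIs, the medians were 0.89 for cornified-layer, 0.48 for antimicrobial, -0.08 for chemokine and -0.13 for cell cycle genes. Those of basal layer and mucosal genes were then -0.06 and 0.0002. In that version 4 of 11 cornified-layer and 4 of 11 antimicrobial genes were higher in both mutant libraries, against 10.9% of all genes tested, and 6 of 16 cell cycle genes were lower in both, against 20.7%. A filter on low counts left these genes, so the members that passed are not the whole lists. Lcn2, which passed that filter through the mutant libraries, is among the antimicrobial genes counted as higher in both. The counts are therefore a description, and nothing further is read from them.

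**Figure D5:**
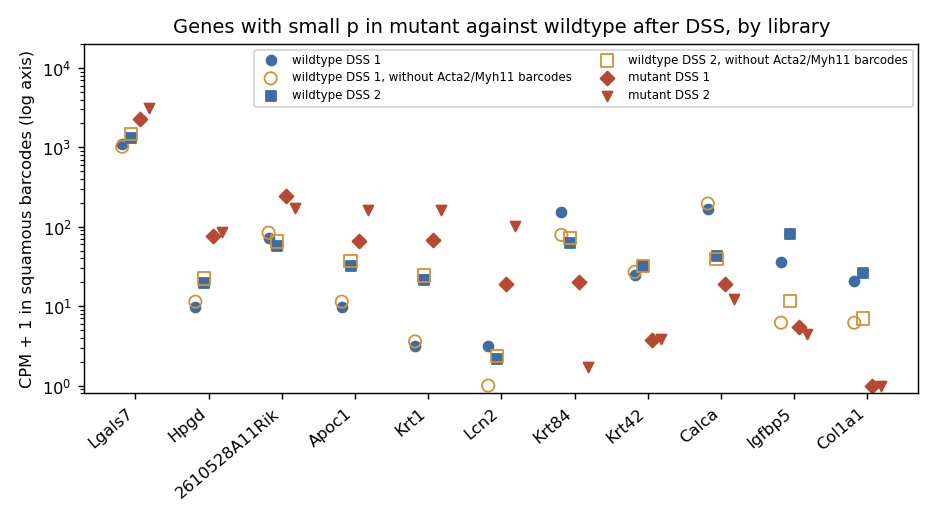
Levels (CPM + 1, log axis) of 11 genes with small p-values in squamous barcodes of the 2 wildtype and 2 mutant DSS libraries. Open symbols are the wildtype libraries without barcodes of 2 or more Acta2 and Myh11 UMIs, where Igfbp5 and Col1a1 are lower than with them. Col1a1 was limited by the rule that chose the barcodes.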

How the data were processed

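Single-cell libraries were made with a 3' kit from CD4-enriched lamina propria cells, per the labels' protocols, and the submitters' processing notes name Cell Ranger 3.1.0, Seurat 4.0.1 and mm10. The authors deposited raw UMI counts per gene and barcode, with 31053 gene rows whose order was given by a symbol list (98.5% of 30934 identifiers had the listed symbol). Libraries held 34497509 to 46960005 UMIs, which sets the counting precision.

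Members and gene lists were chosen with earlier results of these data known. Named genes were the 4 highest of a list, other listed genes, the 20 highest squamous ratios, and those said to be picked later. The mutated gene and some listed genes are not reported here. UMIs of squamous barcodes were summed per library. Genotypes after DSS were compared with edgeR 4.0.16 (TMM, filterByExpr, quasi-likelihood, Benjamini-Hochberg at 0.05) in R 4.3.3, tested on simulated data, with DESeq2 1.42.0 as an alternative. Other alternatives were no filter, gates of 5 and 20 keratin UMIs, stricter limits on other cell types, each library left out, thinning to 1000 UMIs and, chosen after seeing the data, leaving out barcodes under 5000 UMIs or with Acta2 and Myh11. Replicate p-values measure the spread between libraries. The untreated libraries and columnar barcodes were too few to test.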

Additional observations from a re-analysis of the deposited data

Results flagged for a closer look

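In the DSS libraries, 63 quality barcodes with at least 10 gate keratin UMIs were left out by the limits on T cell, macrophage and fibroblast genes, against 3 in the untreated libraries. Another 5 barcodes of the DSS libraries, and 0 of the untreated ones, met the keratin gate and those limits but not the quality limits. Both are keratin signals in barcodes that the comparisons did not use, above the level of the untreated libraries.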

How the results depend on the processing

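edgeR called no gene between mutant and wildtype squamous barcodes after DSS with keratin gates of 20 or 5 UMIs, with barcodes of 5000 UMIs or more, or without barcodes with Acta2 and Myh11, and the fit on only the libraries of the compared groups is the one reported. DESeq2 called 13 genes, edgeR with no filter on low counts 146, and stricter limits on other cell types 1 (Sprr2d). Leaving out 1 library gave 0 to 165 called genes, with 165 without mutant replicate 1, 98 without mutant replicate 2, 7 without wildtype replicate 1 and 0 without wildtype replicate 2. The lone library left in a group is then assumed to vary like the others, and the cause of these counts was not tested. The 10 named genes were called in 37 of 108 refits, and their direction there shows no stability, since they were chosen for it.

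The mean squamous share of the 4 DSS libraries was 0.603%, and 0.389% with stricter limits on other cell types or 0.420% with barcodes of 5000 UMIs or more, moves smaller than the wide spread between libraries. The share of barcodes with 3 or more Krt4 and Krt13 UMIs had a mean of 51.7%, and 19.6% after thinning to 1000 UMIs, where fewer UMIs per barcode are read. No paired analysis was run. The titles of the DSS libraries carry numbers that neighbour each other between the genotypes, in replicates 1 and in replicates 2. No label says whether these mark pairs, and an effect of such pairs was not tested. The tests planned for untreated barcodes were not run, since no untreated library held 10 squamous barcodes. Depth limits what can be read from the shallow barcodes of wildtype replicate 2.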
